A study of Homo sapiens with 40 samples.

Results

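The mRNAs described here encode the subunits of the proteasome, the barrel-shaped protease that degrades ubiquitin-tagged proteins. They were chosen by gene symbol, as the rows for the 20S core, the 19S cap and the proteasome activators, and all 40 symbols were found among 55765 in the count files. All 40 libraries came from HEK293 cells, an established human embryonic kidney line, and formed 12 groups in 3 experiments. In the RNA immunoprecipitation experiment (RIP), cells without siRNA gave RIP total RNA and the RNA recovered with the eIF4A1 IP, the eIF4A2 IP or the DDX6 IP (n = 3 each). In the gradient experiment, cells received control siRNA or CNOT1 siRNA, and 3 kinds of RNA were sequenced (n = 4 each): the input, the subpolysomal part of a sucrose gradient (fractions 1 to 5, pooled) and its polysomal part (fractions 6 to 11, pooled). In the TNRC6 experiment, cells received TNRC6 control siRNA or TNRC6A/B siRNA, directed at TNRC6A and TNRC6B together (n = 2 each). No IP with a control antibody was analysed here. The sources do not say whether replicates came from separate cultures, so p-values measure only the spread between these libraries.

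In the proteasome, 4 stacked rings form the 20S core: the outer rings are built from the alpha subunits PSMA1 to PSMA7, and the inner rings from the beta subunits PSMB1 to PSMB7. PSMB6, PSMB7 and PSMB5 carry the caspase-like, trypsin-like and chymotrypsin-like active sites, respectively. The 19S cap binds ubiquitin chains, removes them, unfolds the substrate with its ring of ATPases (PSMC1 to PSMC6) and feeds it into the core. The activators PSME1 to PSME4 can take the place of the cap. Because the subunits assemble in fixed ratios, their mRNAs are often described as a coordinately expressed group. eIF4A1 is the helicase of the translation initiation complex eIF4F. eIF4A2 is its close paralogue, DDX6 is a helicase of translational repression and decapping, and CNOT1 is the scaffold of the Ccr4-Not deadenylase complex, to which the GW182 proteins TNRC6A and TNRC6B link Argonaute.

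Total counts ran from 15.4 × 10⁶ to 46.0 × 10⁶ per library. Levels are given in CPM, counts scaled to a fixed library total after TMM adjustment, and therefore as a share of the sequenced mRNA. In bulk RNA, a change in every cell and a change in some cells cannot be told apart. The HEK293 markers VIM, NEFM, NEFL and CDH2 had mean levels of 67.5 to 4570 CPM in RIP total RNA and both control siRNA total RNAs, whereas INA reached 6.33 CPM and PAX2 0.872 CPM. Of the markers of other cell types, PTPRC was at 0 and COL1A1 averaged 4.49 to 15.0 CPM in the same groups. CNOT1 mRNA was at 628 to 711 CPM in control siRNA input and at 36.8 to 41.4 CPM in CNOT1 siRNA input. It was at 235 to 317 CPM and 73.5 to 89.6 CPM in the matching subpolysomal groups. In the polysomal groups it went against the labels in 2 libraries, both labelled replicate 3: it was at 28.3 CPM in the one labelled control siRNA and at 631 CPM in the one labelled CNOT1 siRNA. The other control siRNA polysomal libraries held 470, 501 and 479 CPM, and the other CNOT1 siRNA polysomal libraries at most 31.6 CPM. The counts of members called and the members named in comparisons of polysomal RNA are therefore also given without both of these libraries. TNRC6A was at 178 and 189 CPM with control siRNA against 40.5 and 64.7 CPM with TNRC6A/B siRNA, and TNRC6B at 67.6 and 73.1 CPM against 17.7 and 26.3 CPM.

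The study asked whether purine-rich motifs just upstream of the start codon accompany eIF4A2 binding, so the stretch before the AUG is shown for a selection of the members named below. Each sequence holds the last 27 nt of the 5′UTR and the start codon, 5′ to 3′ on the sense strand, from GRCh37 (the build of hg19) with GENCODE release 44 transcripts. Capitals mark any of 8 purine tetramers, searched on the mRNA strand without overlap: AAAA, those with a single G (GAAA, AGAA and AAGA), and those with 2 (GAGA or AGAG, and GAAG or GGAA).
PSMD1 (chr2:231921713-231921742, plus strand): gccgacgggcgagtgaggggcgcagccatg
PSMC3 (chr11:47447828-47447857, minus strand): cccatcttctgcccgctcctccaGGAAatg
PSMB6 (chr17:4699463-4699492, plus strand): gctttgaggcagtaccggagGAGAaagatg
PSMD8 (chr19:38865215-38865244, plus strand): gacgacAGAGgcggagctccaactgacatg
PSMA7 (chr20:60718357-60718386, minus strand): GAAGgagcccggccgccgcccgccggcatg
PSMD9 (chr12:122326736-122326765, plus strand): ctctggagtcgcggcccggggttcacgatg
PSMB2 (chr1:36107031-36107060, minus strand): acctgcagcccctggccttccgccaccatg
PSME4 (chr2:54197919-54197948, minus strand): gggggtggggggggtgtccctgggctcatg
PSME2 (chr14:24615788-24615817, minus strand): gaccAGAGatctagcgactGAAGcagcatg
Such a window existed for 31 of the 40 members, and in 11 of them (35.5%) it held at least 1 tetramer, against 42.1% of 11846 genes of the RIP fit. The other 9 members, among them the catalytic PSMB5 and PSMB7, have an annotated 5′UTR too short for the window.

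The members had short transcripts. Their median 5′UTR was 68 nt long, against 147 nt over 12831 coding genes of the RIP fit, and 15 of 40 had a 5′UTR under 50 nt. The median coding sequence was 884 nt against 1440 nt, and the median 3′UTR 348 nt against 1340 nt. The share of G and C in the 5′UTR had a median of 64.7% over 34 members with at least 20 nt, against 67.4% over all genes with a value.

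In control siRNA input RNA, the median level per length was highest in the beta ring of the 20S core (the plot of CPM per kb of transcript). The length was that of a single annotated transcript per gene, and whether it was the form expressed was not tested. The beta ring had a median of 205 CPM per kb (range 68.4 to 441) and the alpha ring 141 CPM per kb (8.15 to 260). The ATPases had a median of 66.5 CPM per kb, the lid 94.8 and the ubiquitin receptors and large base subunits 135. PSMB1 led with 441 ± 6.24 CPM per kb (SD, n = 4), followed by PSMB4 with 370 ± 15.2 and PSMA7 with 260 ± 10.2. These neighbours were separated by more than their SDs, and PSMB1 and PSMB4 also led in RIP total RNA (480 ± 48.3 and 329 ± 70.7, n = 3). The inhibitor PSMF1 (PI31) had 11.5 ± 0.723 CPM per kb, and the chaperone PSMD9, which helps assemble the ATPase ring, 3.30 ± 0.350. PSMA6 stood apart from the other alpha subunits at 8.15 ± 0.541 CPM per kb. Of its annotated exon bases, 14.1% are shared with another gene on the same strand, and for PSMD9 the share is 14.9%. The share is also high for PSMA1 (26.7%) and PSMA2 (17.2%), which had 157 ± 4.53 and 141 ± 8.29 CPM per kb. Reads in shared exons can be lost in counting, and their part in these levels was not tested. The chaperone PSMD5 had 0 to 6 counts in any library and 99 over all 40, and it was the only member that did not pass the filter on low counts in each experiment. The 39 other members were tested in all comparisons. Exon overlaps with genes on the opposite strand were largest for PSMC1 (76.1% of exon bases, with NRDE2) and PSMD7 (31.2%), and the strand setting of the counting was not stated, so the counts of these members are uncertain.

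**Figure D1:**
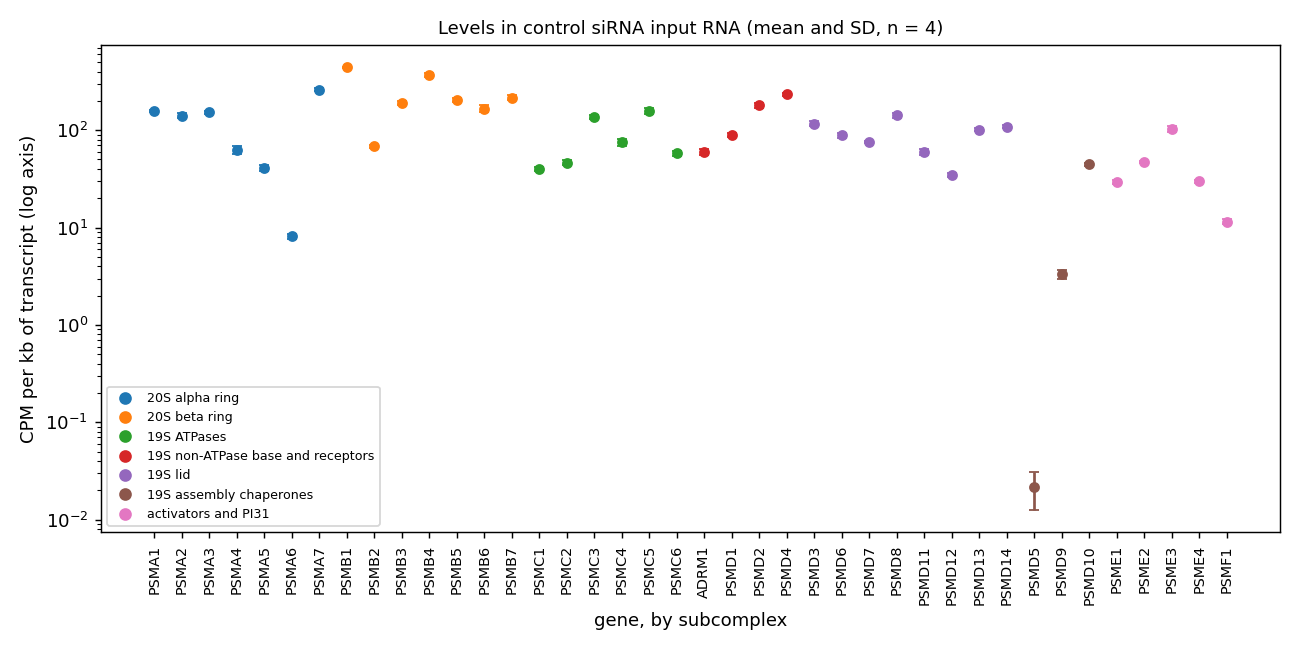
Level of each of the 40 members in control siRNA input RNA, in CPM per kb of annotated transcript on a log axis, as mean and SD of 4 libraries, coloured by subcomplex. PSMB1 is highest at 441, and PSMA6, PSMD9 and PSMD5 lie below the other members.

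The proteasome mRNAs were depleted from all 3 IPs, which were set against RIP total RNA to see which mRNAs a helicase binds. Their summed level was 7549, 8186 and 5910 CPM in the RIP total RNA libraries, 2679, 3396 and 2804 CPM in the eIF4A1 IP, 2665, 2904 and 2806 CPM in the eIF4A2 IP, and 3740, 4246 and 3305 CPM in the DDX6 IP. No IP library reached the lowest total RNA library, replicate 3, which itself lay below the other 2. In the eIF4A1 IP, 37 of 39 members were lower at an FDR below 0.05 (edgeR's quasi-likelihood F-test, two-sided, Benjamini-Hochberg over 17474 genes), whereas 26.5% of all genes were lower and 26.1% higher. In the eIF4A2 IP 39 of 39 were lower, against 25.8% of all genes lower and 24.5% higher, and in the DDX6 IP 36 of 39, against 23.3% and 22.7%. The number of members higher was 0 in each IP with edgeR, also at an unadjusted p below 0.05, and 0 with DESeq2. Of all 17474 genes, 5143, 4875 and 4649 were higher at that unadjusted p in the eIF4A1, eIF4A2 and DDX6 IPs. With DESeq2 25.8%, 24.6% and 23.2% were. The median log2 fold change of the members was -1.29 in the eIF4A1 IP, -1.44 in the eIF4A2 IP and -0.88 in the DDX6 IP, against 0.04, 0.01 and 0.01 for all genes tested. The 3 comparisons share the RIP total RNA libraries. The counts are read relative to the other mRNAs of the same IP, not as an absolute amount of bound RNA.

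The strongest depletion was seen for 2 subunits of the 19S base. PSMD1, the large scaffold of the base, was at 254, 281 and 206 CPM in RIP total RNA and at 40.3, 39.7 and 42.3 CPM in the eIF4A1 IP, 54.5, 46.9 and 40.4 CPM in the eIF4A2 IP and 67.7, 60.1 and 59.0 CPM in the DDX6 IP. The groups were far apart in every replicate. Its log2 fold change was -2.60 ± 0.16 (SE, n = 3 per group; edgeR adjusted p = 7.84e-07) in the eIF4A1 IP, -2.39 ± 0.16 (adjusted p = 4.25e-07) in the eIF4A2 IP and -1.99 ± 0.15 (adjusted p = 8.11e-06) in the DDX6 IP. PSMC3, an ATPase, went from 211, 221 and 146 CPM in RIP total RNA to 33.1, 47.5 and 31.6 CPM in the eIF4A1 IP, 34.6, 44.8 and 25.2 CPM in the eIF4A2 IP and 56.1, 64.5 and 35.4 CPM in the DDX6 IP. Its log2 fold changes were -2.36 ± 0.27, -2.47 ± 0.27 and -1.89 ± 0.27, with edgeR adjusted p of 1.63e-05, 1.11e-05 and 0.000126.

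At the other end, PSMD9 was at 14.8, 15.7 and 13.6 CPM in RIP total RNA and 13.1, 18.3 and 12.7 CPM in the eIF4A1 IP, where the groups overlapped and the log2 fold change was -0.00 ± 0.20 (edgeR adjusted p = 0.999). It was lower in the eIF4A2 IP, at 8.39, 12.8 and 9.26 CPM, by -0.54 ± 0.20 (adjusted p = 0.040), a call that was lost when any of these 6 libraries except eIF4A2 IP replicate 2 was left out, with edgeR adjusted p up to 0.143. In the DDX6 IP its log2 fold change was 0.23 ± 0.20 (adjusted p = 0.357). PSMA7, an alpha subunit, was at 317, 351 and 221 CPM in RIP total RNA, 170, 275 and 180 CPM in the eIF4A1 IP and 251, 336 and 220 CPM in the DDX6 IP. Its groups overlapped in both, with log2 fold changes of -0.51 ± 0.23 (adjusted p = 0.0835; 0.00326 with the replicate number as a block) and -0.14 ± 0.23 (adjusted p = 0.647). PSME4, the nuclear activator PA200, had the smallest depletion in the eIF4A2 IP. It was at 170, 187 and 183 CPM in RIP total RNA and 137, 133 and 140 CPM in the eIF4A2 IP, a log2 fold change of -0.40 ± 0.14 (adjusted p = 0.0263). This call was lost without RIP total RNA replicate 2 or 3 or eIF4A2 IP replicate 1 or 2, with edgeR adjusted p up to 0.0766, and without a filter on low counts, with 0.122.

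The active-site subunits behaved alike in direction (the plot of the catalytic subunits in every library). PSMB6 was at 130, 136 and 77.0 CPM in RIP total RNA, 39.6, 65.7 and 44.4 CPM in the eIF4A1 IP, 28.5, 33.5 and 30.3 CPM in the eIF4A2 IP and 66.8, 89.4 and 54.2 CPM in the DDX6 IP. The eIF4A1 and eIF4A2 IPs did not overlap RIP total RNA, while the DDX6 IP did. PSMB7 was at 230, 241 and 148 CPM, then 65.1, 78.1 and 63.3, 59.9, 55.5 and 55.4, and 91.2, 106 and 78.8 CPM, in the same order. PSMB5 was at 183, 189 and 120 CPM, then 73.8, 94.0 and 73.7, 58.8, 59.4 and 64.7, and 104, 137 and 97.8 CPM. All 3 genes were lower in each IP by the test, with PSMB5 and PSMB6 nearest the threshold in the DDX6 IP (edgeR adjusted p = 0.0313 and 0.0307). Both calls were lost without RIP total RNA replicate 1 or 2 or DDX6 IP replicate 1 or 3, with adjusted p up to 0.123.

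By subcomplex, the ATPases and the large base subunits had the lowest medians in the eIF4A1 IP (-1.69 and -1.50) and the DDX6 IP (-1.36 and -1.23), and all 10 were called lower in both. In the eIF4A2 IP the beta ring had the lowest median, -1.86, with 7 of 7 lower. The lid had 8 of 8 lower in each IP, with medians of -1.43, -1.51 and -1.07. The activators and PI31 were lower in 5 of 5 cases in each IP and had medians of -0.91, -0.86 and -0.73.

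**Figure D2:**
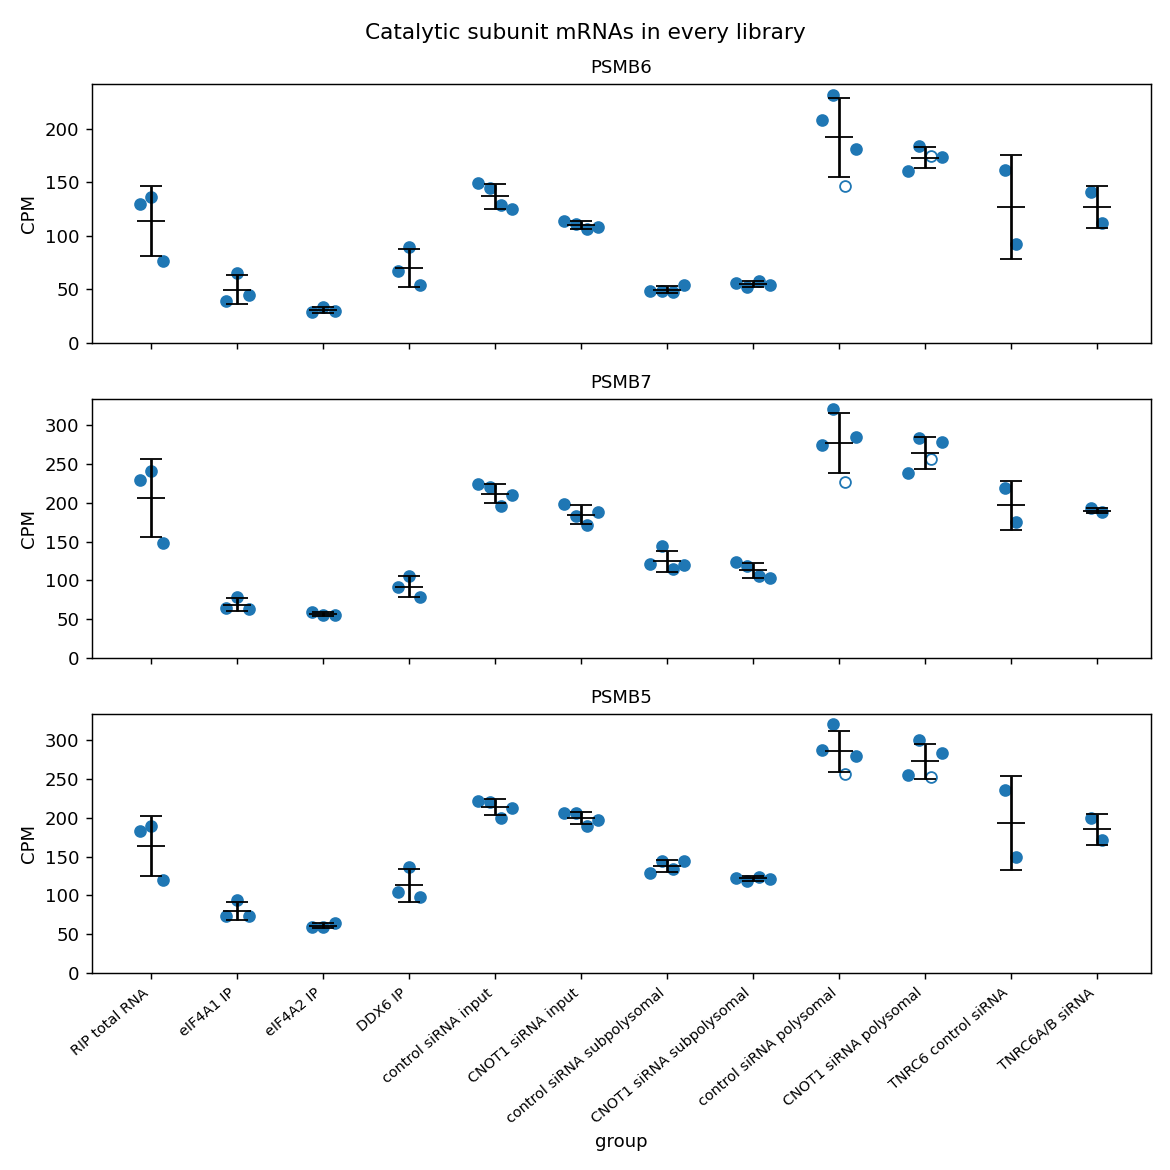
Levels of PSMB6, PSMB7 and PSMB5 in CPM in each of the 40 libraries by group; black marks are mean and SD, and open circles are the 2 polysomal libraries whose CNOT1 level goes against the label. The eIF4A2 IP is the lowest group for each gene, with PSMB6 between 28.5 and 33.5 CPM, and the polysomal groups are the highest.

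The IPs were then compared with each other. Against the DDX6 IP, the eIF4A2 IP held less of 14 of 39 members (edgeR), while 11.3% of all genes were lower and 9.82% higher. The number of members higher was 0 with edgeR, also at an unadjusted p below 0.05, and 0 with DESeq2. Of all 17474 genes, 3017 were higher at that unadjusted p, and 11.9% with DESeq2. The beta ring accounted for 7 of the 14: PSMB1 to PSMB7 all were lower, with log2 fold changes between -1.19 and -0.55 and a median of -0.73. The others were PSMA2, PSMC1, PSMD4, PSMD7, PSMD8 and both assembly chaperones tested, PSMD9 and PSMD10. Only 1 of 7 alpha subunits, 1 of 6 ATPases and 2 of 8 lid subunits were called, and none of the 5 activators and PI31. The contrast between subcomplexes was not itself tested. The replicate numbers paired the RIP libraries, and with that block 25 of 39 members were lower and none higher, against 22.0% and 18.5% of all genes. These 25 were 7 of 7 beta subunits, 4 of 7 alpha subunits, 4 of 6 ATPases, 3 of 4 base subunits and receptors, 3 of 8 lid subunits, both chaperones tested, and 2 of the 5 activators and PI31. Without eIF4A2 IP replicate 1 or DDX6 IP replicate 2 the count fell to 6, and without eIF4A2 IP replicate 3 or DDX6 IP replicate 1 to 8. The beta subunits kept log2 fold changes of at most -0.44 in every setting run, while 3 to 7 of them were called. The share of all genes called with a library left out is not given. A general loss of calls and a loss among the members cannot be told apart from these counts.

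PSMD8, a lid subunit, and PSMB6 differed most between these IPs. PSMD8 was at 47.3, 61.2 and 42.0 CPM in the eIF4A2 IP and 118, 150 and 87.7 CPM in the DDX6 IP, with no overlap and a log2 fold change of -1.24 ± 0.26 (edgeR adjusted p = 0.00674). PSMB6, whose levels are given above, did not overlap either and had a log2 fold change of -1.19 ± 0.25 (edgeR adjusted p = 0.00674). At the other end were the activators PSME2 (0.14 ± 0.18, edgeR adjusted p = 0.597) and PSME4 (0.09 ± 0.14, edgeR adjusted p = 0.651), with overlapping groups. In the 27 nt before the AUG (capitals above), PSMD8 and PSMB6 have 1 purine tetramer each, PSME2 has 2 and PSME4 has 0.

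Against the eIF4A1 IP, no member of the eIF4A2 IP was called (edgeR), while 0.973% of all genes were higher and 0.0858% lower. Of the members, 4 were higher and 4 lower with an unadjusted p under 0.05, against 1647 and 1469 of all 17474 genes. DESeq2 called 1 higher (PSME4), against 3.1% of all genes higher and 0.91% lower. With the replicate block 4 members were higher (PSMC6, PSMD6, PSMD12, PSME4) and 5 lower (PSMB6, PSMD8, PSMD3, PSMD9, ADRM1), against 7.12% and 8.7% of all genes. The 2 highest and the 2 lowest members were PSME4 (0.41 ± 0.14), PSMD6 (0.36 ± 0.14), PSMB6 (-0.70 ± 0.25) and PSMD8 (-0.64 ± 0.26), with adjusted p of 0.170, 0.217, 0.186 and 0.223 without the block and 0.0245, 0.0492, 0.0163 and 0.00867 with it (edgeR). The libraries of the eIF4A1 and eIF4A2 IPs did not overlap for any of these 4. They were picked for their fold changes, and the share of all genes without overlap is not given, so this adds no support to the differences.

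The DDX6 IP held more of 38 of the 39 members than the eIF4A1 IP, with a median log2 fold change of 0.37 against -0.01 for all genes, but no member was called without the block (edgeR), where 0.0801% of all genes were higher and 0.0114% lower. Unadjusted p was below 0.05 for 17 members, all higher, against 1341 of all 17474 genes higher and 1097 lower. DESeq2 called 7 higher, against 2.9% of all genes higher and 1.47% lower. With the block 14 were higher and none lower, against 6.08% and 3.82% of all genes. PSMD1 (0.61 ± 0.15, adjusted p = 0.148, blocked 0.0124) and PSMD7, a lid scaffold (0.61 ± 0.19, adjusted p = 0.215, blocked 0.0108), were highest (edgeR). In both the DDX6 IP libraries lay above all eIF4A1 IP libraries. Both were picked for their fold changes, and the share of all genes without overlap is not given. PSME2 (-0.12 ± 0.18, adjusted p = 0.795) and PSMA4 (0.06 ± 0.14, adjusted p = 0.871) were lowest, with overlapping groups (edgeR).

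**Figure D3:**
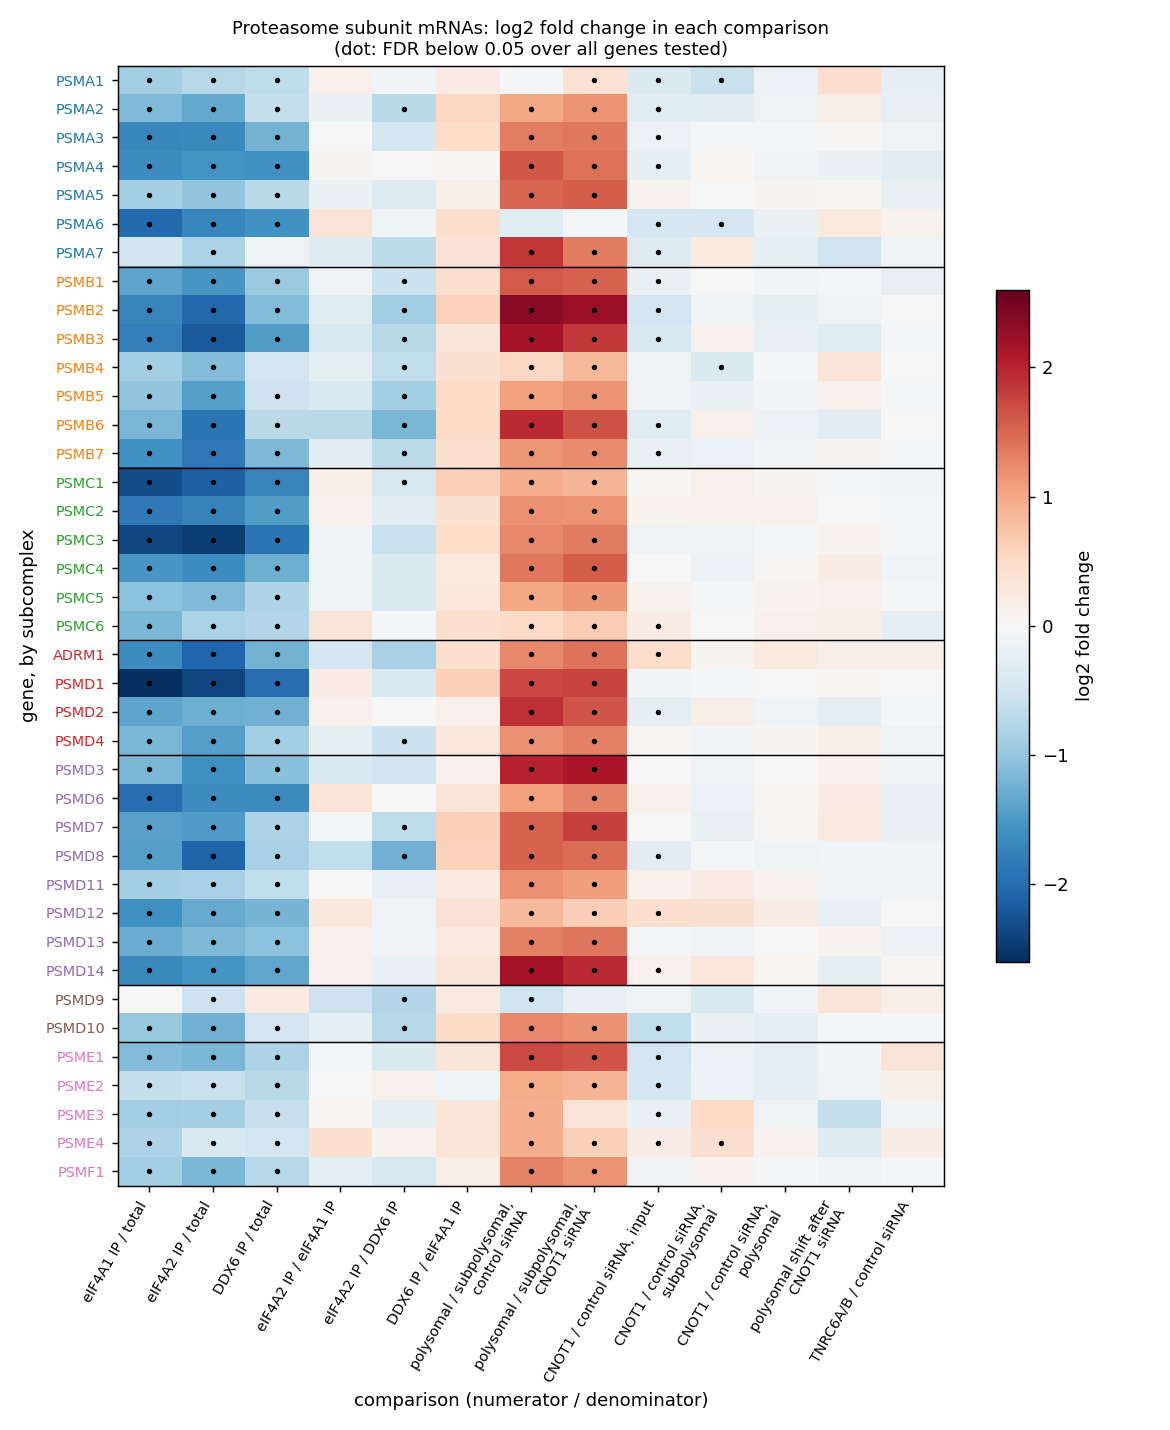
Log2 fold change of the 39 members tested (rows, by subcomplex) in the 13 comparisons (columns); a dot marks an FDR below 0.05 over all genes tested. The first 3 columns are almost wholly negative, and the polysomal over subpolysomal columns positive except for PSMA6, PSMD9 and, with control siRNA, PSMA1.

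To see how the members distribute over the gradient, polysomal RNA was compared with subpolysomal RNA. With control siRNA the summed level of the members was 3334 to 4004 CPM in subpolysomal RNA and 8005 to 9956 CPM in polysomal RNA, with no overlap. In polysomal RNA 36 of 39 members were higher and 1 lower (edgeR, over 16776 genes), against 30.5% and 33.5% of all genes. The median log2 fold change was 1.25 against -0.02 for all genes. With CNOT1 siRNA 36 were higher and 0 lower (edgeR), against 32.7% and 33.2% of all genes, with a median of 1.32 against -0.01. The number lower was also 0 at an unadjusted p below 0.05, against 5829 of all 16776 genes, and with DESeq2, against 33.8% of all genes. Without both polysomal libraries numbered 3 the counts were the same, 36 higher and 1 lower with control siRNA, against 30.4% and 35.4% of all genes, and 36 higher with CNOT1 siRNA, against 35.2% higher and 34.8% lower.

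The beta ring (median 1.59 with control siRNA, 7 of 7 higher), the base subunits and receptors (1.49, 4 of 4) and the lid (1.42, 8 of 8) had the highest medians, and the ATPases (1.10, 6 of 6) and activators (0.97, 5 of 5) lower ones. Without both libraries these medians were 1.66, 1.41, 1.44, 1.08 and 1.10, with the same counts. PSMB2, a beta subunit, was at 66.3, 81.0, 73.0 and 74.1 CPM in subpolysomal RNA and 414, 455, 247 and 381 CPM in polysomal RNA with control siRNA. The value of 247 came from the library labelled replicate 3. With CNOT1 siRNA it was at 65.8, 66.9, 75.7 and 64.4 CPM and at 292, 326, 364 and 297 CPM. Its log2 fold changes were 2.35 ± 0.19 (edgeR adjusted p = 9.42e-07) and 2.23 ± 0.12 (edgeR adjusted p = 2.35e-08), or 2.50 and 2.16 without both libraries. PSMD14, the deubiquitinase of the lid, rose from 46.4, 56.9, 38.1 and 39.4 CPM to 182, 216, 217 and 197 CPM with control siRNA, by 2.17 ± 0.16 on the log2 scale (edgeR adjusted p = 5.72e-07), or 2.13 without both libraries. PSMD3, a lid subunit, was second with CNOT1 siRNA, where it went from 70.5, 70.4, 87.0 and 83.3 CPM to 341, 390, 299 and 329 CPM, by 2.13 ± 0.13 (edgeR adjusted p = 4.58e-08), or 2.18 without both libraries.

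PSMD9 was the one member lower in polysomal RNA with control siRNA. It was at 14.5, 13.8, 14.2 and 15.4 CPM in subpolysomal RNA and 12.2, 11.6, 8.45 and 8.42 CPM in polysomal RNA, a log2 fold change of -0.51 ± 0.18 (edgeR adjusted p = 0.0272; 0.0408 without both libraries). The call was lost without control siRNA subpolysomal replicate 1 or 4 or polysomal replicate 4, with edgeR adjusted p up to 0.0829, and without a filter on low counts. With CNOT1 siRNA its value was -0.19 ± 0.16 (edgeR adjusted p = 0.328; -0.12 and 0.480 without both libraries). PSMA6 was at 11.3, 10.6, 9.22 and 9.57 CPM in subpolysomal and 9.92, 8.34, 6.28 and 8.30 CPM in polysomal RNA with control siRNA, where the groups overlapped. Its log2 fold changes were -0.31 ± 0.19 (adjusted p = 0.173) and, with CNOT1 siRNA, -0.05 ± 0.18 (adjusted p = 0.798, edgeR), or -0.20 (adjusted p = 0.295) and -0.16 (adjusted p = 0.371) without both libraries. PSMA6 and PSMD9 are also the members with the lowest levels among those tested.

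**Figure D4:**
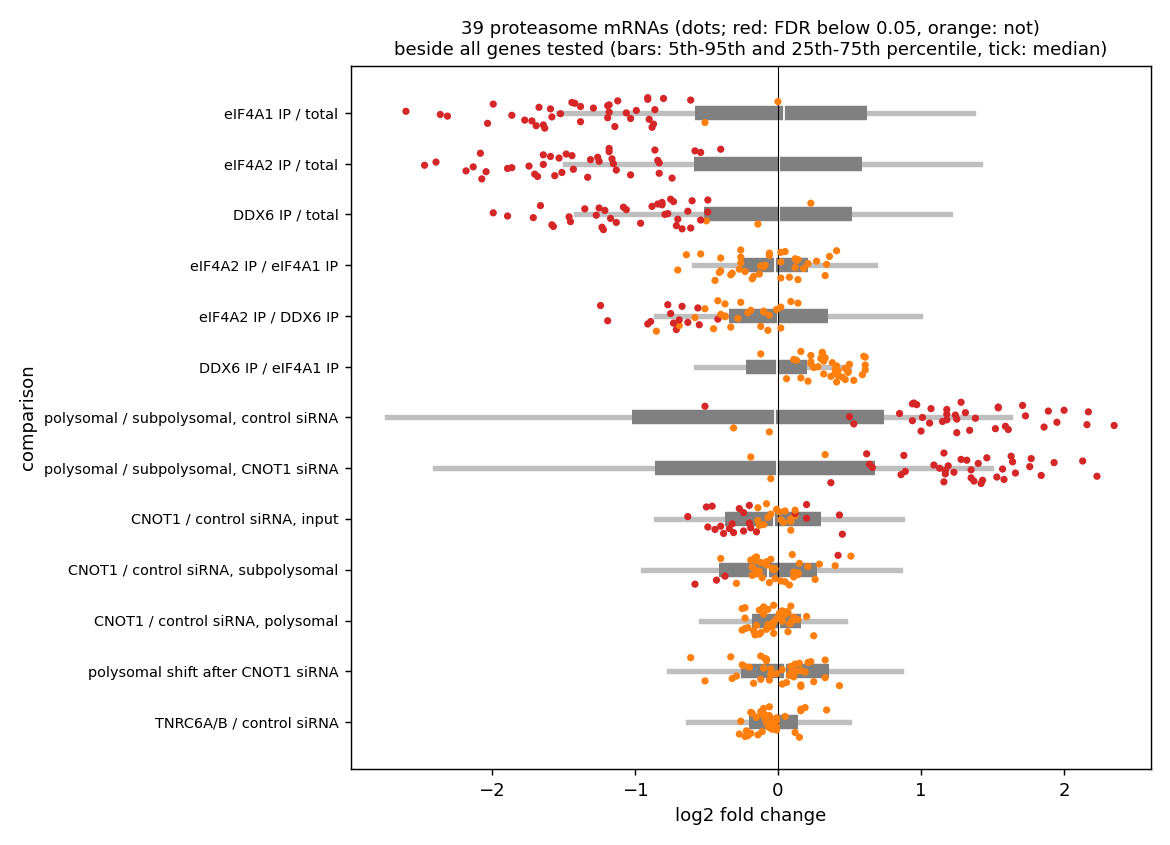
Log2 fold changes of the 39 members (dots, red where called) beside the distribution of all genes tested (bars) in each of the 13 comparisons. In the 3 comparisons with RIP total RNA the members' medians are -1.29, -1.44 and -0.88, and in the 2 polysomal over subpolysomal comparisons 1.25 and 1.32, against all-gene medians between -0.02 and 0.04.

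In input RNA, CNOT1 siRNA lowered mainly mRNAs of the 20S core. Of 39 members, 17 were lower and 5 higher (edgeR), against 29.6% and 28.0% of all genes, with a median of -0.13 against -0.03. Of the 14 subunits of the 20S core, 11 were lower and 0 higher (edgeR). In the alternatives run, DESeq2 included, 5 to 13 of the 14 were lower and 0 higher. Of the 18 subunits of the 19S cap without chaperones, 2 were lower and 4 higher. The median log2 fold change was -0.28 in the core and 0.05 in the cap, a difference that was not itself tested. The changes were small, at most 1.55-fold. With the replicate number of the input libraries taken as a block, 20 members were lower and 8 higher, against 32.4% and 30.8% of all genes. That pairing was weak for number 4, which correlated at 0.131 between the groups, against up to 0.2 for unlike numbers. With all 24 gradient libraries in 1 fit, 8 members were lower and 1 higher, against 15.6% and 13.4% of all genes.

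The 2 most reduced members were PSMD10 and PSME1. PSMD10 (gankyrin), an assembly chaperone of the base, was at 66.6, 68.8, 63.8 and 64.2 CPM with control siRNA and 45.4, 45.7, 37.6 and 41.6 CPM with CNOT1 siRNA. The groups did not overlap, and it fell by 0.63 on the log2 scale (SE 0.07, edgeR adjusted p = 8.18e-07). PSME1, a subunit of the PA28 activator, was at 28.9, 26.6, 28.9 and 29.4 CPM and at 19.1, 19.5, 22.1 and 19.5 CPM, also without overlap, and fell by 0.50 (SE 0.07, edgeR adjusted p = 1.36e-05). Its partner PSME2 was called lower too. Among the core subunits PSMB2 went from 308, 318, 290 and 296 CPM to 218, 236, 194 and 216 CPM and PSMA1 from 191, 191, 180 and 188 CPM to 152, 139, 140 and 144 CPM, both without overlap. PSMB6 was at 149, 145, 129 and 125 CPM and at 114, 111, 106 and 108 CPM, while PSMB5 was at 222, 221, 200 and 213 CPM and at 206, 206, 190 and 197 CPM, overlapped and was not called without the block (edgeR adjusted p = 0.125, blocked 0.0305).

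The 5 members that rose were ADRM1, PSMD12, PSMC6, PSME4 and PSMD14. ADRM1, the ubiquitin receptor RPN13, was at 87.0, 85.2, 83.3 and 73.9 CPM with control siRNA and 109, 129, 101 and 112 CPM with CNOT1 siRNA, a log2 fold change of 0.45 ± 0.07 (edgeR adjusted p = 5.99e-05; 0.155 with all 24 libraries in 1 fit). PSMD12, a lid subunit, was at 147, 153, 146 and 160 CPM and at 207, 221, 206 and 183 CPM, a log2 fold change of 0.43 ± 0.06 (edgeR adjusted p = 1.83e-05). In neither did the groups overlap. PSMD14 lay near the threshold (edgeR adjusted p = 0.0465).

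**Figure D5:**
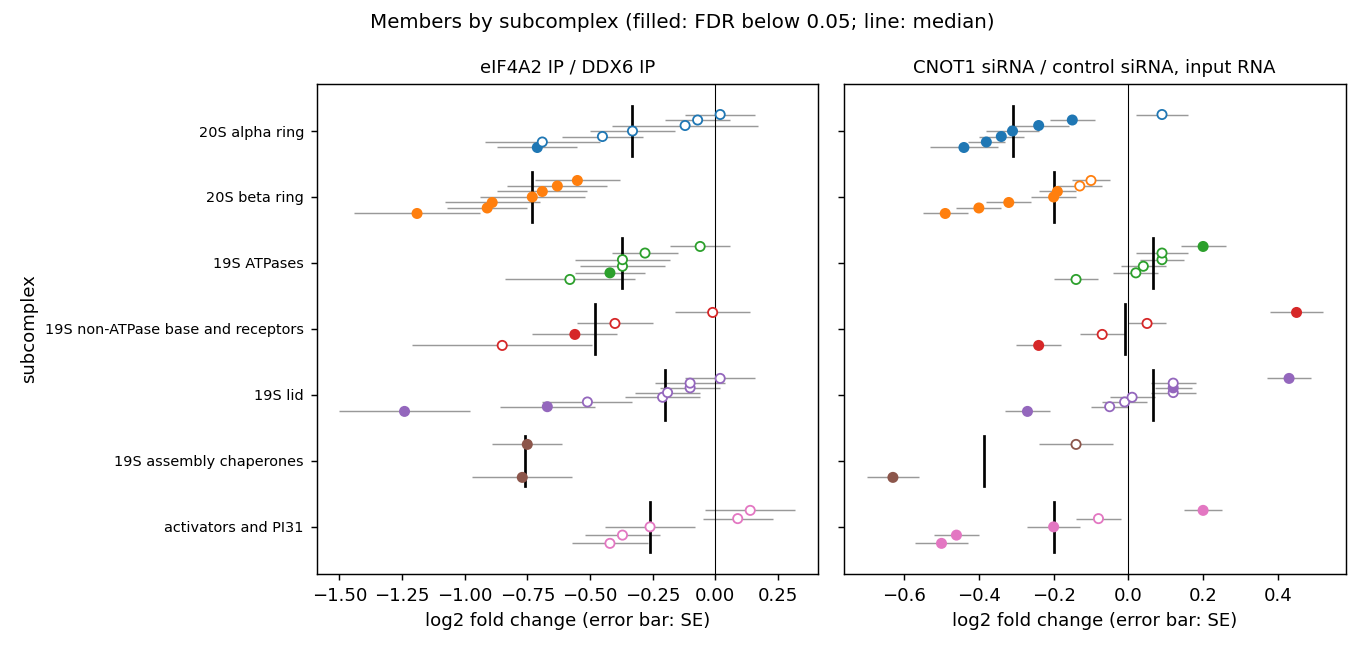
Log2 fold change and SE of each member by subcomplex for the eIF4A2 IP over the DDX6 IP (left) and for CNOT1 siRNA over control siRNA in input RNA (right); filled points have an FDR below 0.05 and black lines are medians. All 7 beta subunits lie below 0 on the left; on the right the alpha and beta rings have medians of -0.31 and -0.20 and the ATPases and lid of 0.06.

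In subpolysomal RNA, CNOT1 siRNA lowered 3 members (PSMA1, PSMA6, PSMB4) and raised 1 (PSME4), against 15.2% and 10.4% of all genes (edgeR). The replicate numbers paired these libraries, and with the block 7 were lower and 6 higher, against 32.6% and 24.3% of all genes. PSMA1 was at 221, 243, 180 and 228 CPM with control siRNA and 154, 156, 122 and 149 CPM with CNOT1 siRNA, without overlap, and fell by 0.58 (SE 0.13, edgeR adjusted p = 0.00849, blocked 2.71e-07). PSMA6 was at 8.20, 6.95, 7.11 and 7.95 CPM with CNOT1 siRNA and fell by 0.43 (SE 0.15, edgeR adjusted p = 0.0487), and its call was lost in the fits that left out any of 7 of the 8 libraries, all but control siRNA replicate 3, with edgeR adjusted p up to 0.131, with RLE scaling (0.0551) and without a filter on low counts (0.205). PSME4 rose from 114, 113, 85.0 and 85.0 CPM to 135, 141, 134 and 123 CPM, a log2 fold change of 0.42 ± 0.13 (edgeR adjusted p = 0.0339). Its call was lost without control siRNA subpolysomal replicate 3 or 4 or any CNOT1 siRNA subpolysomal replicate, with edgeR adjusted p up to 0.0879. PSME3, a nuclear activator, had the highest log2 fold change, 0.51 ± 0.21, and was not called without the block (edgeR adjusted p = 0.0902, blocked 6.52e-06). Its libraries overlapped, at 213, 251, 150 and 192 CPM against 278, 391, 194 and 285 CPM.

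In polysomal RNA as labelled, no member and no gene at all was called after CNOT1 siRNA (edgeR; 0.0% in each direction). At an unadjusted p below 0.05 the count of members was 0, against 60 of all 16776 genes higher and 121 lower, and DESeq2 called 0. Without both libraries numbered 3, 8 members were lower (PSMA1, PSMA2, PSMA7, PSMB2, PSMB3, PSMD10, PSME1, PSME2) and 2 higher (PSMD12, PSME4), against 15.9% and 19.2% of all genes. All 10 had been called in the same direction in input RNA, where 29.6% of all genes were lower and 28.0% higher. The share of all genes with the same agreement is not given, so the count is not read as particular to the members. As labelled, the lowest members were PSMA7 (-0.25 ± 0.17) and PSME1 (-0.25 ± 0.18) and the highest ADRM1 (0.25 ± 0.27) and PSMD12 (0.20 ± 0.16), each with an edgeR adjusted p of 0.907 and overlapping groups. Without both libraries these values were -0.40 (adjusted p = 0.0235), -0.48 (adjusted p = 0.00633), 0.54 (adjusted p = 0.0696) and 0.41 (adjusted p = 0.0052).

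Whether CNOT1 siRNA changed the polysomal over subpolysomal ratio was tested as an interaction. No member was called (edgeR), against 0.548% of all genes higher and 0.37% lower, and the members' median was 0.03 against 0.05. An unadjusted p under 0.05 was reached by 1 higher and 2 lower members, against 1462 and 1034 of all 16776 genes. DESeq2 called 0 members, against 2.27% of all genes higher and 2.48% lower. The highest were PSMA1 (0.43 ± 0.20, adjusted p = 0.324) and PSMB4 (0.33 ± 0.17, adjusted p = 0.361), and the lowest PSME3 (-0.61 ± 0.26, adjusted p = 0.268) and PSMA7 (-0.51 ± 0.23, adjusted p = 0.291, edgeR). Without both libraries PSMA1 was at 0.25 (adjusted p = 0.398), PSMB4 at 0.30 (adjusted p = 0.215) and PSME3 at -0.71 (adjusted p = 0.115), while PSMA7 (-0.67, adjusted p = 0.037) and PSMB3 were called lower and 0 members higher, against 4.01% and 5.47% of all genes.

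With TNRC6A/B siRNA, no member and no gene was called (edgeR and 2 libraries per group; 0.0% in each direction). At an unadjusted p below 0.05 the count of members was 0, against 173 of all 14064 genes higher and 116 lower. DESeq2 called 0 members, against 0.0427% of all genes higher and 0.0142% lower. With the replicate number as a block 0 members were called as well, against 3.7% of all genes higher and 1.73% lower. The members' log2 fold changes ran from -0.27 to 0.34 with a median of -0.06, and their SEs from 0.18 to 0.71 with a median of 0.24. Changes as small as most of those after CNOT1 siRNA in input RNA were not detectable at this precision. The targets themselves, TNRC6A (-1.8 ± 0.29) and TNRC6B (-1.68 ± 0.28), were not called either (edgeR). Larger changes could therefore also go uncalled, and the absence of calls says little about the members. The summed level was 6087 and 8199 CPM with control siRNA and 6278 and 7237 CPM with TNRC6A/B siRNA. PSMA4 (-0.27 ± 0.20) and PSMC6, an ATPase (-0.26 ± 0.20), were lowest and PSME1 (0.34 ± 0.24) and PSME4 (0.19 ± 0.18) highest, each with an adjusted p of 1.0 (edgeR). The median of all members was 0.17 without control siRNA replicate 1 and -0.24 without control siRNA replicate 2, so that its sign depended on 1 library.

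A list of 37 related genes was set beside the members. Of 34 tested in the RIP experiment, 17 were lower and 6 higher in the eIF4A1 IP, 18 and 5 in the eIF4A2 IP and 14 and 4 in the DDX6 IP, with medians of -0.52, -0.71 and -0.33 (edgeR). Over all genes the shares lower and higher were 26.5% and 26.1%, 25.8% and 24.5%, and 23.3% and 22.7%. Of the 20S assembly factors, PSMG3 was higher in the eIF4A1, eIF4A2 and DDX6 IPs (1.01 ± 0.24, 0.94 ± 0.24 and 1.14 ± 0.24, edgeR adjusted p = 0.00308, 0.00483 and 0.00176), while POMP was lower in the eIF4A1 IP (-0.70 ± 0.23, edgeR adjusted p = 0.0185); both were picked after their values were seen. Of 33 tested in the gradient experiment, 21 were higher and 5 lower in polysomal RNA with control siRNA and all libraries as labelled, against 30.5% and 33.5% of all genes. UBB, a polyubiquitin gene, had a log2 fold change of 2.36 ± 0.16 and the assembly factor PSMG4 one of -2.03 ± 0.22 (edgeR adjusted p = 2.53e-07 and 6.7e-06). In input RNA CNOT1 siRNA lowered 10 of the 33 and raised 11, against 29.6% and 28.0% of all genes. DDI2, the protease that activates the proteasome gene regulator NFE2L1, fell by 0.73 (SE 0.07, edgeR adjusted p = 2.14e-07).

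Across the 39 members, the log2 fold change between the eIF4A2 and eIF4A1 IPs was higher for longer coding sequences (Spearman's rho 0.44, and 0.42 over 12831 genes), and higher for coding sequences with more purine tetramers per 100 nt (0.64, and 0.16 over all genes). The same pattern was seen between the eIF4A2 and DDX6 IPs, which share the eIF4A2 libraries (0.39 and 0.49, against 0.39 and -0.09). With tetramers in the 5′UTR the correlation was -0.10 in both over 34 members. Against RIP total RNA, the members' correlation with tetramers per 100 nt of coding sequence was 0.25 in the eIF4A2 IP. It was -0.03 in the eIF4A1 IP and -0.05 in the DDX6 IP. Over all genes these values were -0.24, -0.31 and -0.23 in the same order. Other features and comparisons were correlated as well, and only some are given. These correlations run across genes, which share libraries and are not independent replicates, and are given as a description.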

How the data were processed

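RNA-Seq of 40 HEK293 libraries was analysed from the deposited counts, 1 unnormalised integer per gene symbol. Per the labels and the study's methods, the authors made these counts from TruSeq stranded mRNA libraries (NextSeq500) with bcl2fastq 2.0, TopHat2 on hg19 and htseq-count. Strand setting and tool versions other than that were not given in the sources used here. A deposited table of the authors' edgeR tests (fold changes and p-values of each IP against total RNA) was not used.

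Members, gene lists and tests were chosen with earlier results of these data known. Genes were filtered with filterByExpr and scaled by TMM, and tested in edgeR 4.0.16 (R 4.3.3) with the quasi-likelihood F-test: all 12 RIP libraries in 1 fit, only the compared groups of the gradient experiment, and the 4 TNRC6 libraries. SE is the fold change over the root of F. The threshold for a call was an FDR of 0.05 (Benjamini-Hochberg, all genes tested). The procedure was tested on simulated data. In each comparison the 2 highest and 2 lowest members are named with tests. Levels are named for PSMB5, PSMB6, PSMB7 and these members, with other members and related genes added after their values were seen. Of the related lists, the called gene with the largest change in a direction and comparison could be named. A related gene is not reported here. The tests were repeated with the replicate number as a block, with DESeq2 1.42.0, with RLE scaling, unfiltered, with other sets of libraries in the fit, and with libraries left out.

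The replicate numbers were taken from the titles and checked by correlating how libraries with 1 number deviated from the means of their groups. All correlations exceeded 0.1 in the RIP comparisons (0.179 to 0.882), between the input groups (0.131 to 0.578) and between the subpolysomal groups (0.749 to 0.867), so there the numbers were taken as pairs. Unlike numbers did not always correlate less. Between the input groups they reached 0.2, above number 4 (0.131). Between the eIF4A1 IP and RIP total RNA they reached 0.388, above number 1 (0.267). Positions and transcript features came from GENCODE release 44 on GRCh37, 1-based. Counting error alone is covered by the depth, since reads carry no molecular identifiers.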

Additional observations from a re-analysis of the deposited data

Results flagged for a closer look

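Among the 17 members named in the gradient experiment and their summed level, 108 sets of 4 libraries were examined for a library far from the other 3, of which chance flags about 1 in 20, and 3 were found. PSME1 was at 26.6 CPM in control siRNA input replicate 2, below the other control libraries (28.9, 28.9 and 29.4 CPM). It was at 22.1 CPM in CNOT1 siRNA input replicate 3, above the others (19.1, 19.5 and 19.5 CPM). PSMB6 was at 54.4 CPM in control siRNA subpolysomal replicate 4, above the others (48.7, 48.4 and 47.7 CPM). With all libraries as labelled, no member passed the interaction test of the polysomal over subpolysomal ratio between the siRNAs, whereas without both polysomal libraries numbered 3 PSMA7 and PSMB3 were lower. No member moved without overlap in opposite directions after CNOT1 siRNA in 2 of the 3 RNA fractions. By calls with the replicate block, however, PSMA7 and PSME3 were lower in input RNA and higher in subpolysomal RNA. The share of all genes with opposite changes is not given.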

How the results depend on the processing

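Of 164 recomputed counts of called members, 144 were within 1.5 times the reported count and 20 were not. With DESeq2, 1 member was called between the eIF4A2 and eIF4A1 IPs and 7 between the DDX6 and eIF4A1 IPs, in place of 0 each. Without a filter on low counts, 2 were called between the eIF4A2 and eIF4A1 IPs, both lower, against 1.41% of all genes higher and 1.65% lower. With the replicate block, 9 were called between the eIF4A2 and eIF4A1 IPs, 25 between the eIF4A2 and DDX6 IPs, 14 between the DDX6 and eIF4A1 IPs and 13 after CNOT1 siRNA in subpolysomal RNA, and in no other comparison did the block move the count by over 1.5 times. With all 24 gradient libraries in 1 fit, 9 were called in input RNA and 8 in subpolysomal RNA. Without both polysomal libraries numbered 3, 10 were called in polysomal RNA and 2 for the interaction. The causes were not tested. The labels do not say what a replicate number marks in the polysomal and TNRC6 libraries: same-numbered libraries correlated from -0.558 to 0.113 between the polysomal groups. In the TNRC6 experiment the correlation was 0.927. With 2 libraries per group both numbers must give the same value, so it is a single comparison. The block called 0 members there but 3.7% of all genes higher and 1.73% lower.

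Leaving out 1 library at a time gave 37 to 38, 37 to 38 and 30 to 37 calls for the eIF4A1, eIF4A2 and DDX6 IPs against RIP total RNA, 6 to 14 between the eIF4A2 and DDX6 IPs, and 0 for the other pairs of IPs, the polysomal CNOT1 siRNA effect, the interaction and TNRC6A/B siRNA. It gave 36 to 37 and 35 to 37 for polysomal over subpolysomal RNA, 18 to 23 for CNOT1 siRNA in input RNA and 1 to 3 in subpolysomal RNA, where it was 1 without control siRNA replicate 4 or CNOT1 siRNA replicate 1, 2 or 4 and 2 without CNOT1 siRNA replicate 3. The shares of all genes called with a library left out are not given, so these ranges are not read as particular to the members. Of the genes named with tests, values near 0 changed sign in 10 of 861 recomputations. PSMD9 in the eIF4A1 IP was 0.04 without a filter and ranged from -0.2 to 0.09 when 1 library was left out. In the same way, PSME4 ranged from -0.01 to 0.17 and PSME2 from -0.04 to 0.3 between the eIF4A2 and DDX6 IPs, PSME2 from -0.28 to 0.06 and PSMA4 from -0.0 to 0.14 between the DDX6 and eIF4A1 IPs, and PSMA6 from -0.16 to 0.02 in polysomal over subpolysomal RNA with CNOT1 siRNA. Where an arm kept 1 library, it was assumed to vary like the others.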
